A study of Mus musculus with 12 samples.

Results

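The potassium channel genes of the mouse retina were followed here in the *Otx2* CKO and control retina at postnatal day 1 (P1) and P12. A gene was included if its symbol begins with Kcn and if a probe set carries that symbol and no other, with *Kcnj10* left aside. This gave 83 genes of the 18194 genes with a probe set of 1 symbol, measured by 166 of the 45101 probe sets. Each gene is represented by its brightest probe set, the one with the highest mean signal over the 12 arrays. Total RNA of whole retina was hybridized to Affymetrix mouse genome arrays, 3 arrays in each of 4 groups. All animals carried floxed *Otx2* on both chromosomes. The CKO groups carried a Cre transgene driven by the *Crx* promoter, which is active in photoreceptor precursors, and the control groups lacked it. No label says whether the 3 arrays of a group came from separate animals, so the p-values measure the spread between arrays.

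Potassium channels let potassium ions leave or enter the cell and so set the resting potential and shape the electrical response of neurons and glia. Voltage-gated (Kv) channels are built from pore-forming subunits, from modifier subunits that form no channel alone, and from small KCNE, Kv-beta and Kv4-interacting (KChIP) partners. Inward rectifiers and two-pore-domain leak channels hold the resting potential, and calcium- or sodium-activated channels respond to ions inside the cell. In rods and cones, the outward potassium current of the inner segment balances the dark current of the outer segment. Otx2 is the homeodomain transcription factor required for photoreceptor fate.

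*Otx2* itself, on its only probe set, had signals of 376, 358 and 282.9 in the P1 control arrays, against 143.8, 107.8 and 154 with *Otx2* deleted. At P12 it had 1057.7, 1047.7 and 802.9 in the control, against 245, 166.8 and 107.9 in the *Otx2* CKO. The genotypes did not overlap at either age, and the log2 change was -1.23 at P1 (limma adjusted p = 0.207) and -2.44 at P12 (limma adjusted p = 6.96e-05). The photoreceptor markers bore out the retina label, with a summed signal of 29950 to 42540 in the P12 control arrays. In the P12 *Otx2* CKO arrays that sum was 1007 to 2236, and all 9 photoreceptor markers tested were lower. The arrays were not brought to a common brightness: the 2% trimmed mean signal was 22.0 to 30.3 at P1 and 96.6 to 172 at P12. The first P12 *Otx2* CKO array was the brightest.

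The promoter sequences below belong to the called genes whose region around the transcription start holds TAATC, the core that Otx2 and the related factor Crx recognize. They are RefSeq sequences of build GRCm38.p6, read along the gene from 100 bases before the start to 50 after it. Capitals mark TAATC or its reverse complement GATTA.
Kcne2 (chr16:92292289-92292438, plus strand): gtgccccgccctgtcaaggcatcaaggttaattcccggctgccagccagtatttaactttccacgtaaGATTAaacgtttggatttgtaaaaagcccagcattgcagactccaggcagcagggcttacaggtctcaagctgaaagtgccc
Kcng4 (chr8:119635631-119635780, minus strand): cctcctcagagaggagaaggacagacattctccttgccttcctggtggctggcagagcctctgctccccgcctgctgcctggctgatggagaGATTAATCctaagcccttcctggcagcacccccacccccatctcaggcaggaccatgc
Kcnk1 (chr8:125995002-125995151, plus strand): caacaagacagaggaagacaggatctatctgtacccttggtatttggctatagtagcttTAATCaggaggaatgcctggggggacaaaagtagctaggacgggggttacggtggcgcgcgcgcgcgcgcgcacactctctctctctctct
*Kcne2* and *Kcng4* were lower in the *Otx2* CKO retina at P12, and *Kcnk1* was higher. The match began 32 bases before the start in *Kcne2* and 41 bases before it in *Kcnk1*. *Kcng4* held a pair of overlapping matches beginning 8 and 5 bases before the start. Over windows from 250 bases before to 50 after each start, both strands read, 22.0% of all 32851 promoters held the core, as did 18 of the 88 promoters of potassium channel genes. Both lower genes with a promoter in the table held it, at 1 of the 2 listed starts for *Kcne2*, and so did 1 of the 7 higher genes with one. A match of letters is a description of the sequence and was not tied to binding. *Kcnj14*, *Kcnv2* and *Kcnk3* had no entry.

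In each group a smaller share of the potassium channel genes than of all genes passed the signal limit. A group mean of at least 50, the signal limit the study used, was passed by 5 of the 83 genes in the P1 control (6.02%, against 28.2% of all genes) and by 4 in the P1 *Otx2* CKO (4.82%, against 24.6%). At P12 it was passed by 33 control genes (39.8%, against 53.5%) and by 38 in the *Otx2* CKO (45.8%, against 57.4%). Since P12 arrays were brighter, the counts were read again after quantile normalization of the 12 arrays, which gave 11 and 15 genes at P1 and 28 and 25 genes at P12, control first. Of all genes, 46.2% and 46.5% then passed at P1, and 47.8% in both P12 groups. The larger count in the P12 *Otx2* CKO than in the control therefore turned round with the scaling.

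*Kcna5* (a Kv1 channel), *Kcnd3* (a Kv4 channel), *Kcnk1* (the leak channel TWIK1) and *Kcnq1ot1*, a noncoding RNA from the *Kcnq1* locus and no channel, passed in all 4 groups. *Kcne1l*, a single-pass KCNE subunit, passed in the P1 control and in both P12 groups, and in the P1 *Otx2* CKO its mean was 25.2. The 5 genes that passed only in the P12 control were *Kcne2*, *Kcng4*, *Kcnj14*, *Kcnk3* and *Kcnmb2*. The 10 that passed only in the P12 *Otx2* CKO were *Kcna4*, *Kcnd1*, *Kcnh3*, *Kcnj3*, *Kcnj5*, *Kcnk2*, *Kcnmb4os2*, *Kcnn1*, *Kcnq3* and *Kcnu1*. Another 23 genes passed in both P12 groups and neither P1 group, among them all 3 Kv3 genes (*Kcnc1*, *Kcnc2*, *Kcnc4*) and all 4 KChIP genes (*Kcnip1* to *Kcnip4*).

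The remaining 40 genes passed in no group, with highest group means from 2.47 (*Kcnn3*) to 49.4 (*Kcnh8*). The inward rectifiers were mostly among them, with 9 of 14 below the limit everywhere, including *Kcnj2* at 8.80 and *Kcnj13* at 33.3. So were 9 of the 12 two-pore-domain genes and 6 of the 9 modifier subunit genes. Just inside the limit were *Kcnmb2*, at 50.2 in the P12 control (43.9 in the *Otx2* CKO), and *Kcnq3*, at 50.7 in the P12 *Otx2* CKO. Just outside it were *Kcnh8* and *Kcnk6*, at 49.4 and 49.2 in the P12 *Otx2* CKO. These signals compare 1 probe set between groups and do not rank transcripts by abundance.

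**Figure D1:**
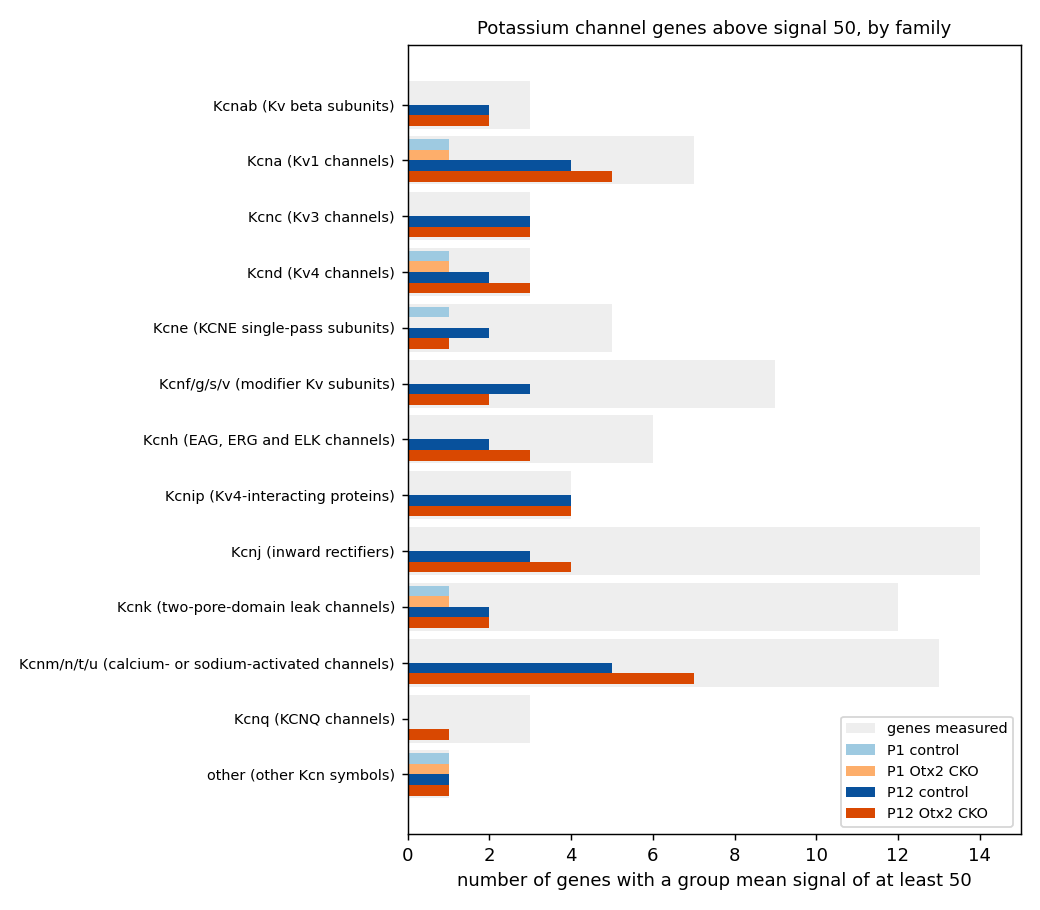
Number of potassium channel genes with a group mean signal of at least 50 (horizontal axis) in each family (vertical axis), with the genes measured in grey and 1 coloured bar for each of the 4 groups. P1 bars are 1 gene or none, all 4 KChIP genes and all 3 Kv3 genes pass at P12, and of 14 inward rectifiers 3 pass in the control, 4 in the *Otx2* CKO.

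At P1, 5 genes were bright enough in either genotype to be tested and none was called by limma at an adjusted p under 0.05. Over all 8384 probe sets tested, 0.179% were called lower and 0% higher. Without adjustment, at a p under 0.05, limma gave 1 lower gene and 0 higher genes. That gene was *Kcne1l*, with 68.6, 51 and 43 in the control arrays against 26.6, 28.9 and 20 in those of the *Otx2* CKO. The genotypes did not overlap, and the log2 change was -0.76 ± 0.27 (SE; limma adjusted p = 0.915). *Kcnk1* changed by -0.16 ± 0.36 and *Kcna5* by -0.59 ± 0.42 (SE), and their genotypes overlapped. The other scalings brought 6 to 15 genes into the test and called none, beside 0.144% to 0.208% of all probe sets called lower.

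At P12, 43 genes were tested, of which 5 reached the limit only in the control and 10 only in the *Otx2* CKO, so that the filter itself favoured a difference in those 15. Of the 43, 5 were lower and 10 higher in the *Otx2* CKO retina, that is 11.6% and 23.3% of them, beside 4.54% lower and 14.1% higher over all 21390 probe sets tested. The median log2 change of the 43 genes was 0.47, and that of all probe sets was 0.39. Because the arrays differed in brightness, each call was repeated after quantile normalization within each age, which gives the arrays of an age a common distribution. The median of all probe sets was then 0.06. What part of the 0.39 came from brightness was not tested. There 42 genes were tested, of which 7 were lower and 5 higher, beside 8.76% and 8.34% of all probe sets. Quantile normalization over the 12 arrays, the trimmed mean and the spiked-in control transcripts each left 31 genes tested. Each called 7 lower, with 4, 4 and 3 higher in that order. Of all probe sets they called 8.45%, 7.78% and 7.69% lower, and 7.91%, 7.34% and 6.55% higher. With the array number as a block, limma called 8 lower (*Kcna5*, *Kcnip2* and *Kcnma1* beside the 5) and 21 higher, beside 7.26% and 36.3% of all probe sets. Where each probe set kept its own variance it called 5 and 7, beside 3.95% and 10.7%, the 5 then holding *Kcnma1* in place of *Kcnk3*.

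The steepest fall was that of *Kcnj14*, which encodes an inward rectifier of the Kir2 group. Its signals were 364.6, 1085.6 and 676.6 in the P12 control arrays, against 25.4, 15.7 and 12 in those of the *Otx2* CKO. Every control array was bright and every *Otx2* CKO array was under the limit, so the fall was at least 14.2-fold. The log2 change was -4.32 ± 0.32 (SE), with a limma adjusted p of 2.06e-06. At P1 its signals were 0.1 to 2.9 in all 6 arrays.

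*Kcne2*, a single-pass subunit that modifies Kv and KCNQ channels, fell from 329.4, 578.4 and 450.6 to 21.5, 9.1 and 11.4. No array of the *Otx2* CKO came near the control, and the fall was at least 9.06-fold (log2 -3.95 ± 0.24 SE, limma adjusted p = 8.23e-07). At P1 *Kcne2* gave 2.1 to 4.6 in the control, against 0.1 to 1.0 in the *Otx2* CKO, too dim to test.

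*Kcnv2* and *Kcng4* encode modifier subunits that join Kv2 channels. Mutations of human *KCNV2* cause cone dystrophy with supernormal rod response. *Kcnv2* had 585.6, 684.6 and 684.4 in the P12 control, against 103.4, 49.7 and 27.3 in the *Otx2* CKO, a mean of 651.5 ± 57.1 against 60.1 ± 39.1 (SD, n = 3). It thus fell 10.8-fold (log2 -3.25 ± 0.31 SE, limma adjusted p = 1.64e-05) and kept a mean over the limit through 1 array, the brightest. Without that array the *Otx2* CKO mean was 38.5 and the fall at least 13.0-fold. At P1 *Kcnv2* gave 8.6 to 15.5 in the control, against 0.7 to 5.5 in the *Otx2* CKO, again too dim to test.

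*Kcng4* had 103.3, 198 and 91.1 in the P12 control, against 17.2, 13.4 and 4.8 in the *Otx2* CKO. All *Otx2* CKO arrays were under the limit, and the fall was at least 2.62-fold (log2 -2.36 ± 0.28 SE, limma adjusted p = 1.00e-04). *Kcns2*, the other modifier subunit gene that was tested, moved the other way and is described below.

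The fifth gene was *Kcnk3*, which encodes the acid-sensitive leak channel TASK1. Its signals were 73, 153.7 and 70.8 in the P12 control, against 37.3, 40.2 and 39.5 in the *Otx2* CKO. The genotypes did not overlap, the fall was at least 1.98-fold, and the log2 change was -0.99 ± 0.26 (SE, limma adjusted p = 0.0185). Its other 2 probe sets were below the limit in both P12 groups.

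**Figure D2:**
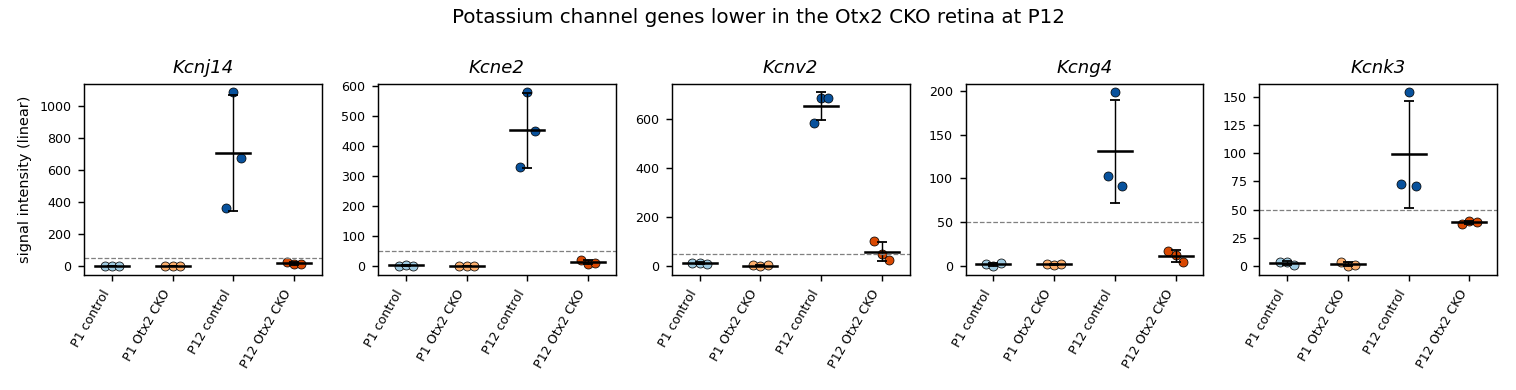
Signal intensity (vertical axis, linear, each panel on its own scale) of the 5 genes called lower at P12, with 1 point per array, 4 groups of 3 arrays, the mean as a thick line, the SD as a bar and the limit of 50 dashed. All P12 control arrays lie above all P12 *Otx2* CKO arrays in each panel, and all P1 arrays lie at or below 15.5.

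The summed signal of the bipolar cell markers fell beside these genes. It was 3871 to 6735 in the P12 control arrays against 291 to 444 in those of the *Otx2* CKO. All 4 markers that were tested were lower. The other measured marker, *Trpm1*, did not fall. It was below the limit and untested, with overlapping genotypes and P12 means of 35.9 (control) and 40.6 (*Otx2* CKO). The photoreceptor sums are given above. In whole retina, fewer cells of a type and less RNA per cell cannot be told apart. The part of the changed cell makeup in the fall of each channel gene was not tested.

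*Kcnip2* and *Kcnma1* were lower at P12 after scaling. *Kcnip2*, a KChIP gene, had 105.5, 225.1 and 156.8 in the control, against 120.6, 81.9 and 65.8 in the *Otx2* CKO. As deposited the genotypes overlapped (log2 -0.74 ± 0.27 SE, limma adjusted p = 0.0733), and after quantile normalization within each age the log2 change was -1.02 (limma adjusted p = 0.00927).

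*Kcnma1*, the pore of the large-conductance calcium-activated (BK) channel, had 373.9, 198.5 and 230.5 in the control, against 240.3, 82.2 and 116.3 in the *Otx2* CKO on its brightest probe set. There too the genotypes overlapped (log2 -0.88 ± 0.35 SE, limma adjusted p = 0.100), and within-age normalization gave -1.24 (limma adjusted p = 0.00922). On 3 other probe sets *Kcnma1* was called lower as deposited, with log2 changes of -1.78, -1.57 and -1.31 (limma adjusted p = 3.03e-05, 0.0359 and 0.0261). *Kcnmb4*, which encodes a BK beta subunit, had a mean of 260.4 ± 117.1 in the control, against 430.3 ± 71.2 in the *Otx2* CKO (SD, n = 3; limma adjusted p = 0.0679).

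Of the 10 higher genes, *Kcna2*, *Kcne1l* and *Kcnu1* were called under all 4 other scalings. *Kcna2*, a Kv1 channel of axons and nerve terminals, rose from 155.4, 62 and 155.2 in the P12 control to 1013.3, 245.9 and 468.6 in the P12 *Otx2* CKO. The genotypes did not overlap, with the brightest array highest, and the rise was 4.64-fold (log2 1.94 ± 0.46 SE, limma adjusted p = 0.0117). Without the first *Otx2* CKO array it was 2.88-fold, and the call remained. A second probe set of *Kcna2* went from 82.1 to 368 (log2 1.85, limma adjusted p = 0.0230), and another from 47.2 to 140 without passing the threshold (limma adjusted p = 0.0572). The remaining probe set had means of 13.4 and 12.7.

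*Kcne1l* had 97.9, 174.4 and 93.3 in the P12 control, against 323.2, 483.2 and 327.7 in the *Otx2* CKO. All *Otx2* CKO arrays were higher, by 3.10-fold on the means (log2 1.54 ± 0.27 SE, limma adjusted p = 0.00188). *Kcne1l* and *Kcne2* belong to the same subunit family and moved in opposite directions at P12. The other 3 KCNE genes measured, *Kcne1*, *Kcne3* and *Kcne4*, had group means of at most 15.9.

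*Kcnu1*, the pH-sensitive channel known from sperm, had 25.7, 38.6 and 40 in the P12 control, against 114.3, 107 and 96.5 in the *Otx2* CKO. The groups were well apart, and the rise was at least 2.12-fold (log2 1.27 ± 0.20 SE, limma adjusted p = 8.34e-04). It rests on the only probe set of the gene.

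*Kcnk1* had 126.1, 491.5 and 314.8 in the P12 control, against 732, 773.7 and 810.2 in the *Otx2* CKO. The controls spread widely and the *Otx2* CKO arrays did not, the groups did not overlap, and the rise was 2.48-fold (log2 1.45 ± 0.36 SE, limma adjusted p = 0.0156). Its other probe set also rose, from 89.4 to 219 (log2 1.28, limma adjusted p = 0.0155). *Kcnk1* was called under both quantile normalizations but not with trimmed mean or spike scaling.

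*Kcns2*, a modifier subunit gene, had 82.3, 81.6 and 50.9 in the control, against 215, 134.4 and 121.4 in the *Otx2* CKO (log2 0.96 ± 0.25 SE, limma adjusted p = 0.0176), and was called under 2 of the 4 scalings. The groups did not overlap. The other 5 higher genes were called under none of the scalings that tested them, all 4 for *Kcna1*, *Kcnh1* and *Kcnip3* and 1 for *Kcnj5* and *Kcnmb4os2*, which were below the limit in the others. They were *Kcna1* (a Kv1 channel), *Kcnh1* (an EAG channel), *Kcnj5* (a G-protein-gated inward rectifier), *Kcnip3* (a KChIP) and *Kcnmb4os2*, an antisense RNA at the *Kcnmb4* locus. Their log2 changes as deposited ran from 0.64 (*Kcnj5*) to 1.06 (*Kcnip3*), with limma adjusted p from 0.0140 to 0.0451. The genotypes overlapped in *Kcnip3* and not in the other 4. *Kcnd3* went from 370.9 ± 54.6 to 766.3 ± 342.0 (SD, n = 3; limma adjusted p = 0.0551), and a dimmer probe set of the gene was called higher, from 56.8 to 130 (log2 0.98, limma adjusted p = 0.0135). Of the 83 probe sets not used to represent a gene, 26 were tested, of which 3 were lower, all of *Kcnma1*, and 4 were higher, of *Kcna2*, *Kcnk1*, *Kcnd3* and *Kcnj3*.

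**Figure D3:**
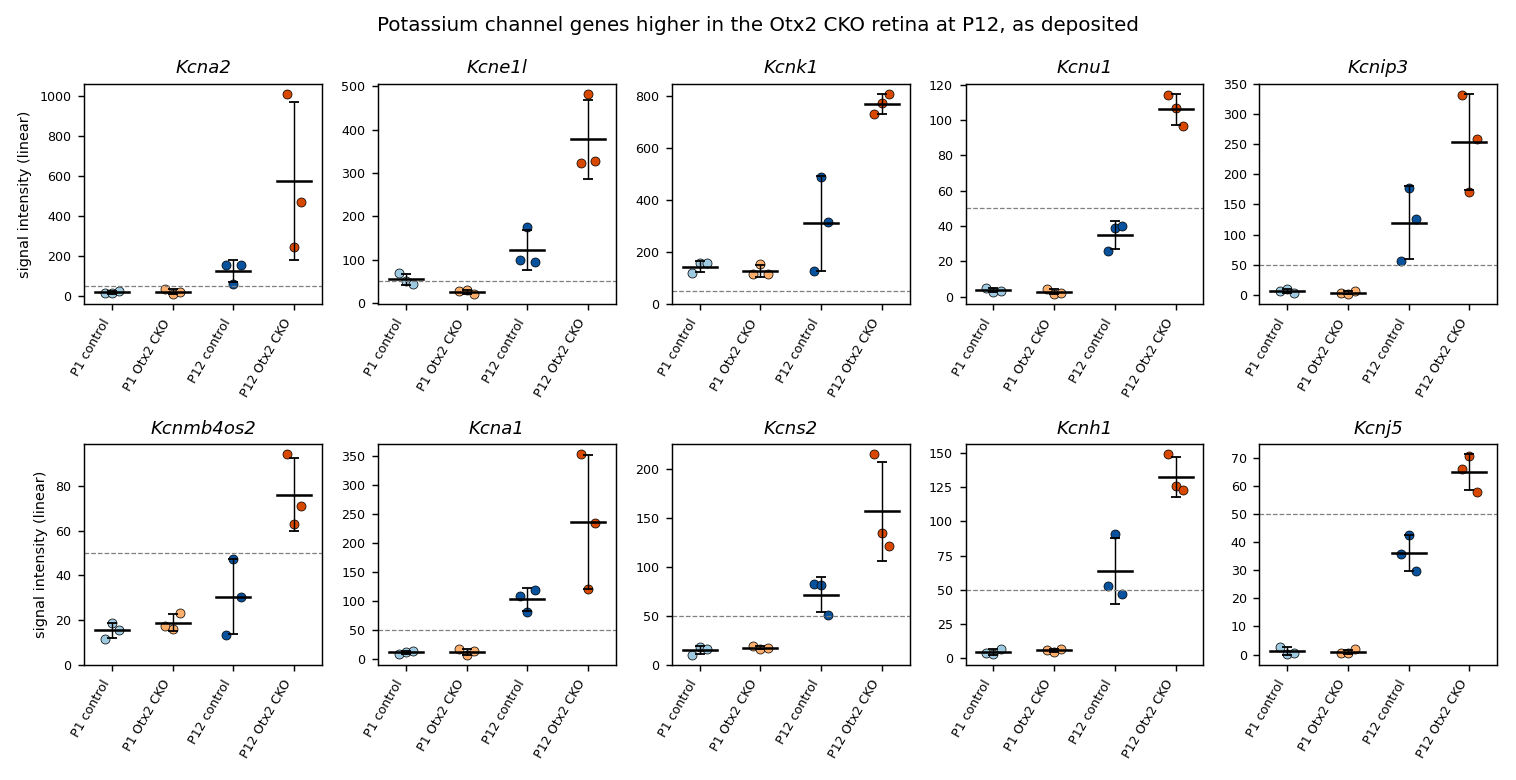
Signal intensity (vertical axis, linear, each panel on its own scale) of the 10 genes called higher at P12 as deposited, drawn as in the plot of the lower genes, with points for arrays, thick lines for means, bars for SD and the limit of 50 dashed. The P12 genotypes are apart in every panel but *Kcnip3*, whose lowest *Otx2* CKO array (171.1) is below the highest control array (176.7).

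The rises stood beside shifts of other cell types. The amacrine marker sum was 4251 to 5831 in the P12 control, against 8328 to 12200 in the *Otx2* CKO, with 3 of 7 markers called higher. The Müller glia sum was 6439 to 12250 against 15430 to 19920, with 4 of 6 called higher, and the microglia sum was 484 to 989.5 against 2643 to 3684, with 6 of 6 called higher. For pigment epithelium the sum was 704 to 2500 against 2115 to 4198, with 3 of 5 called higher. The ganglion cell sum was 2908 to 5004 against 4768 to 6597, with 1 of 5 called higher, and the horizontal cell sum 520 to 774 against 411 to 1365, with 2 of 4 lower and 1 higher. The vessel and pericyte list had 0 of 4 called by limma as deposited (0 at an unadjusted p under 0.05) and 2 of 4 lower after within-age quantile normalization, and the 2 measured red blood cell genes were below the limit. That normalization brought the higher calls to 0 for ganglion cells, 3 for Müller glia and 2 for pigment epithelium, and left the higher counts of the other marker lists as they were. The part of these shifts in any rise was not tested.

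By family, both KCNE genes tested and all 3 modifier subunit genes tested were called, in opposite directions within each family. None of the 3 Kv3 genes, the 3 Kv4 genes or the 2 Kv-beta genes tested was called by limma (1, *Kcnd3*, at an unadjusted p under 0.05), and their log2 changes ran from -0.21 (*Kcnab1*) to 0.94 (*Kcnd3*). Of 5 Kv1 genes, 2 were higher and 3 were not called, *Kcna5* among them at 933.4 ± 632.7 against 476.7 ± 132.8 (SD, n = 3; limma adjusted p = 0.225). Of 5 inward rectifiers, 1 was lower and 1 higher, and of 3 two-pore-domain genes likewise. Of 8 genes grouped by symbol with the calcium- or sodium-activated channels, the pH-sensitive *Kcnu1* and the antisense RNA *Kcnmb4os2* were higher. The other 6, the BK pore gene *Kcnma1* among them, were not called as deposited on their brightest probe sets. Of 17 listed genes whose proteins assemble with these channels or carry the related HCN current, 10 were tested and limma called 0 (4 higher at an unadjusted p under 0.05), and within-age normalization called only *Abcc8* (log2 -0.61, limma adjusted p = 0.0395), the sulfonylurea receptor.

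**Figure D4:**
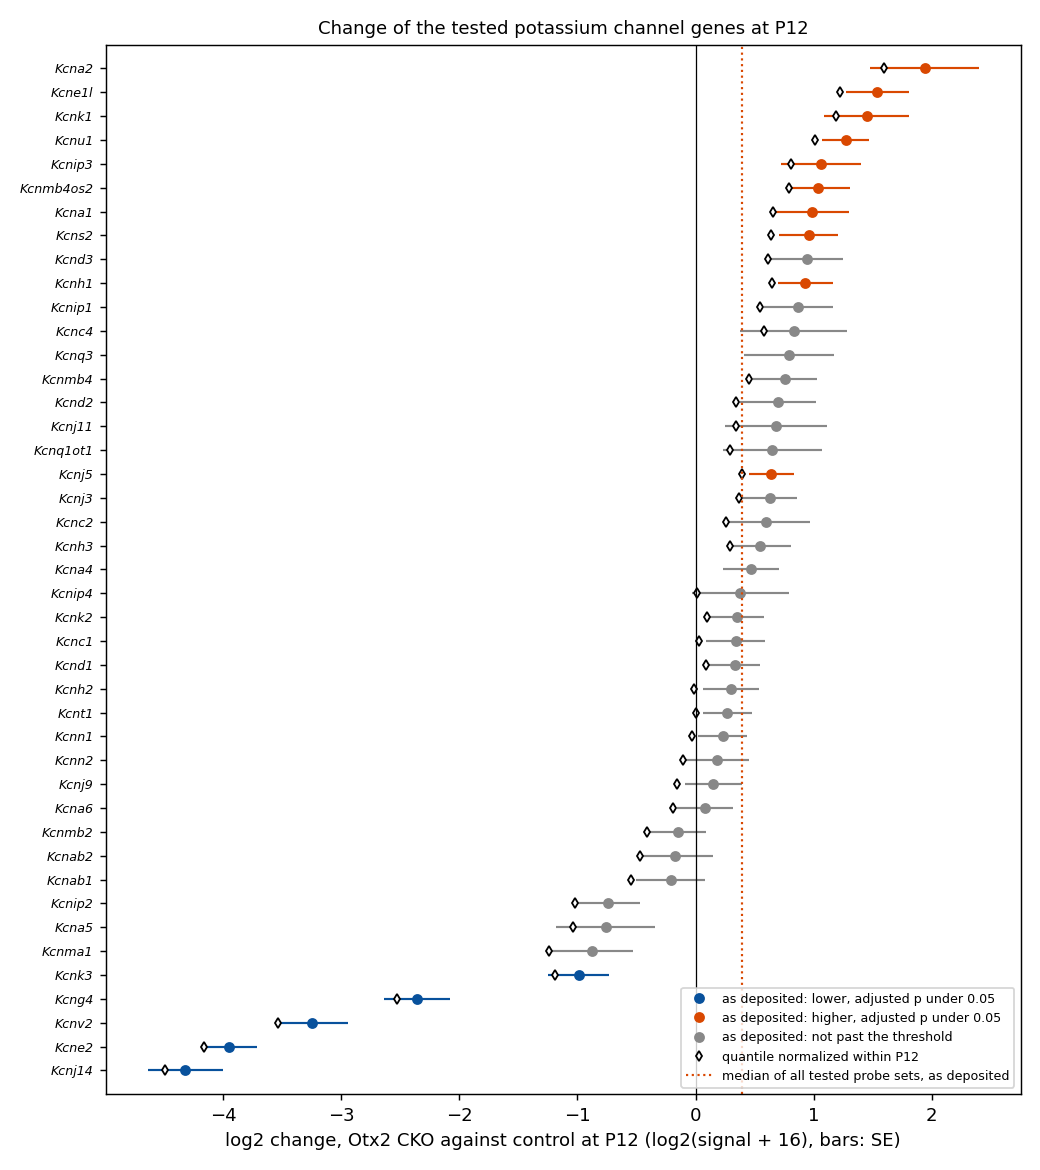
Log2 change in the *Otx2* CKO against the control at P12 (horizontal axis) for the 43 tested potassium channel genes (vertical axis), with circles and SE bars for the signals as deposited and diamonds for quantile normalization within P12. The 4 genes at the bottom, from -2.36 to -4.32, lie apart from the rest under both, and the dotted line is the median of all tested probe sets, 0.39.

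The change at P12 was next compared with the change at P1. The difference passed the limma threshold for 6 of 43 genes, 4 lower and 2 higher, beside 1.79% lower and 3.08% higher over all 21530 probe sets tested. The lower ones were *Kcnj14* (log2 -4.22 ± 0.45 SE, adjusted p = 2.51e-04), *Kcne2* (-3.75 ± 0.34, adjusted p = 1.19e-04), *Kcnv2* (-2.71 ± 0.44, adjusted p = 0.00363) and *Kcng4* (-2.39 ± 0.39, adjusted p = 0.00405). All 4 were under the limit in every P1 array and entered the test through P12 alone, so with the offset of 16 their difference largely restates the P12 change. *Kcne1l* was higher (2.30 ± 0.38, adjusted p = 0.00405), with all 3 *Otx2* CKO arrays below the control at P1 and all 3 above it at P12. *Kcnu1* was also higher (1.33 ± 0.28, adjusted p = 0.0173). It was under the limit in every P1 array, with overlapping genotypes and P1 means of 3.50 and 2.73, so its difference too largely restates the P12 change. The count dropped to 1, *Kcne1l*, in the fit with array numbers as a block and no shared variance, beside 0.427% lower and 0.683% higher over all probe sets. With shared variance it rose to 21 (6 lower and 15 higher), beside 3.99% and 28.9%.

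In the control retina, 33 genes were tested between P1 and P12, of which 5 passed the limit at P1 and 28 at P12 alone. As deposited all 33 were called higher, beside 82.7% higher and 1.5% lower over all probe sets. The filter let most of them in through the age where they were high, and the P12 arrays were brighter, so the count of 33 does not bear on these genes. After quantile normalization of the 12 arrays, 16 of 28 were higher and 0 lower (1 lower at an unadjusted p under 0.05), beside 19.5% and 19.6% of all probe sets. The filter acted there too, since 11 genes passed the limit in the P1 control and 28 in the P12 control. Of all genes 46.2% and 47.8% passed, so the shares of these genes and of all probe sets are not like for like. The median log2 change of all probe sets was 1.45 as deposited and -0.06 after normalization. The largest rises were those of *Kcnj14*, *Kcne2* and *Kcnv2*, with log2 changes of 5.25 ± 0.32, 4.59 ± 0.23 and 4.55 ± 0.31 (SE) as deposited and 4.50, 3.70 and 3.32 after normalization. Their limma adjusted p-values after normalization were 9.88e-08, 5.31e-08 and 1.12e-06.

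*Kcnab1* and *Kcnab2*, the Kv-beta subunits, followed with 3.73 ± 0.29 and 3.29 ± 0.32 (SE). *Kcnab1* had 14.6, 9.2 and 1.4 at P1 and 304.4, 245.7 and 356.3 at P12, with no overlap. Both Kv-beta genes also passed the limit in the P12 *Otx2* CKO, at means of 270.1 ± 112.6 and 362.6 ± 67.0 (SD, n = 3), and their change there was -0.21 ± 0.29 and -0.17 ± 0.32 (SE; limma adjusted p = 0.632 and 0.717). At the other end, *Kcnk1*, *Kcne1l*, *Kcnq1ot1* and *Kcnc2* changed by 0.85, 0.94, 0.96 and 1.23 as deposited. After normalization they changed by -0.86, -0.57, -0.52 and -0.20, so their direction rests on the scaling.

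**Figure D5:**
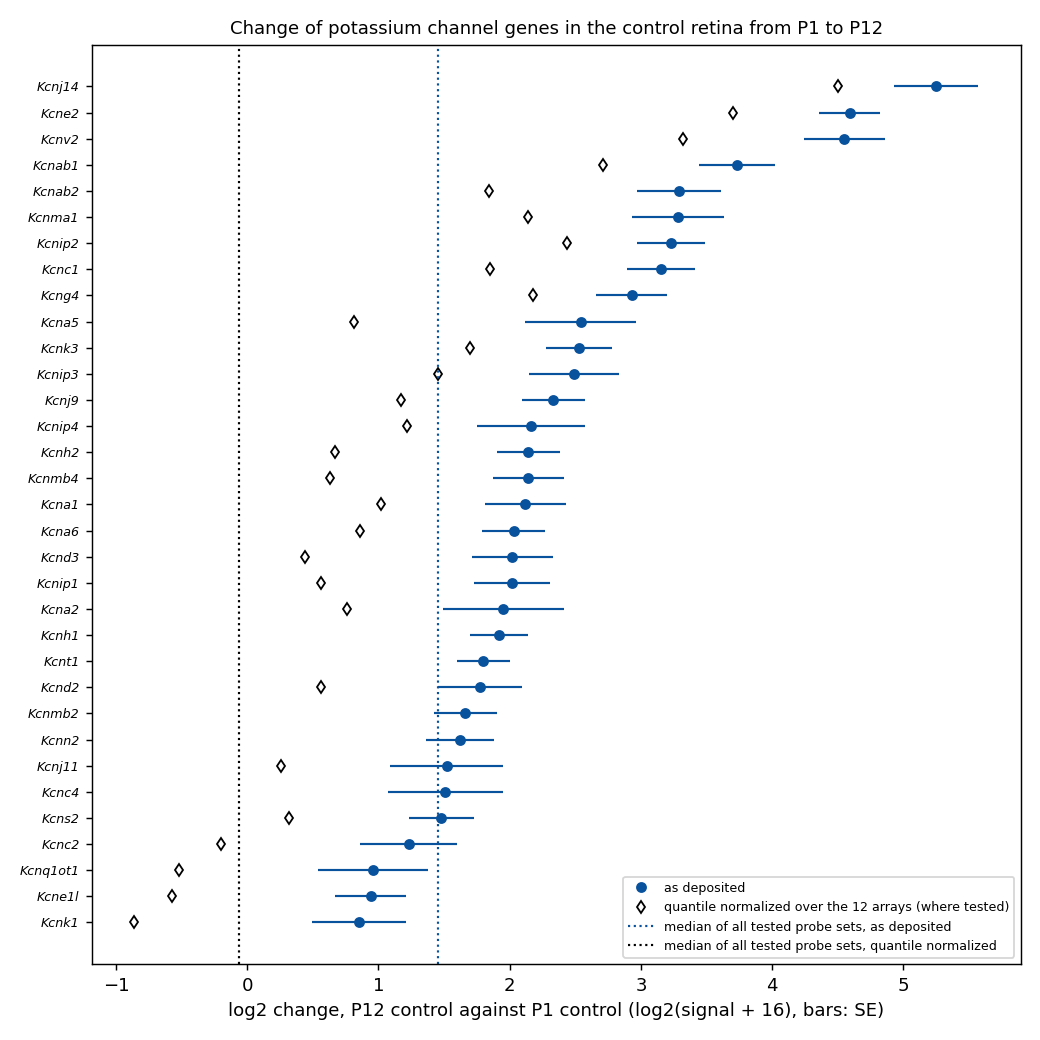
Log2 change from P1 to P12 in the control retina (horizontal axis) for the 33 tested potassium channel genes (vertical axis), with circles and SE bars as deposited and diamonds after quantile normalization of the 12 arrays where the gene was tested there. *Kcnj14*, *Kcne2* and *Kcnv2* lead on both scales, and dotted lines mark the medians of all tested probe sets, 1.45 as deposited and -0.06 after normalization.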

How the data were processed

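The members, gene lists and tests were chosen with earlier results of these data known. The authors isolated total RNA from dissected retinas, hybridized labelled cRNA to Affymetrix arrays and read signals with GeneChip Operating Software. The deposited values are signal intensities on a linear scale, 1 per probe set and array, and no detection calls or common scaling were given. Probe sets were named from the platform annotation: 34958 carry 1 symbol, 932 several and 9211 none. All 83 member genes matched a RefSeq gene by ID.

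Signals were analysed as log2(signal + 16) with limma 3.58.1 in R 4.3.3, in 1 model of 4 groups (12 arrays, 8 residual degrees of freedom), with lmFit and eBayes with a trend. The offset understates the change of dim genes. A probe set was tested where a compared group had a mean of at least 50, and 64 control probe sets were left out. P-values were adjusted by Benjamini-Hochberg over all probe sets tested, with a threshold of 0.05. An "at least" fold takes 50 for the dimmer group. The fit was also run on simulated data with noise drawn separately for each array. That setting leaves out any deviation that arrays share. The number of arrays, 3 a group, limits the precision, and 0 pairs of arrays were identical.

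Named genes were *Kcnj14*, *Kcne2* and *Kcnv2*; called genes with non-overlapping genotypes at P12 (up to 12 each way); the 3 largest called differences between ages; the 5 largest called changes in the control each way; and the 3 brightest in each group. *Kcnip2*, *Kcnma1*, *Kcnmb4*, *Kcnip3* and other genes named as examples were chosen after their values were seen. Titles number the arrays ex1 to ex3 in each group, and the paper speaks of 3 independent microarray experiments. No label says what arrays of 1 number share between groups, so the main model holds no block. Arrays of 1 number deviated together within an age, with correlations of 0.239, 0.173 and 0.327 at P1 and 0.823, 0.881 and 0.540 at P12, so the number was also used as a block. At P12 the block gave 8 lower and 21 higher genes. Its prior degrees of freedom were infinite, meaning 1 variance for all probe sets of a level, so an unmoderated block was added after seeing the data. It gave 5 lower and 7 higher. Other alternatives were scaling, offset, signal limit, each age alone, no trend, another choice of probe set, a fold criterion and leaving out each array.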

Additional observations from a re-analysis of the deposited data

Results flagged for a closer look

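Of the 43 genes tested, 6 changed differently at P12 and P1, by the limma test of the difference itself. On the log2(signal + 16) scale, the P12 change minus the P1 change was -4.22 for *Kcnj14*, -3.75 for *Kcne2*, -2.71 for *Kcnv2*, -2.39 for *Kcng4* and 1.33 for *Kcnu1*. These 5 were dim at P1 in both genotypes, so the value largely restates their P12 change. It was 2.30 for *Kcne1l*, which passed the limit in the P1 control. *Kcne1l* kept this call under all 24 alternatives. *Kcne2*, *Kcng4* and *Kcnj14* lost it only in the unmoderated block fit, and *Kcnv2* there and with an offset of 1. *Kcnu1* lost it under 11 of 24, including all 4 scalings and the removal of P1 control array 1, 2 or 3 or P1 *Otx2* CKO array 2 or 3.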

How the results depend on the processing

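At P12, *Kcnj14*, *Kcne2*, *Kcnv2*, *Kcng4* and *Kcne1l* kept their call under all 25 alternatives, *Kcna2* and *Kcnu1* under all but fitting each age alone, and *Kcnk3* under all but that fit, an offset of 1, the unmoderated block and a limit of 100, which left it untested. *Kcna1* lost its call under 19 of 25 and *Kcnj5* under 13 of 21. *Kcnip3* lost its call under all 4 scalings, an offset of 1, no signal limit, the unmoderated block and each age alone. It was also lost without any 1 of the P1 arrays, P12 control array 1 or 3, or P12 *Otx2* CKO array 1 or 3. No genotype change called at P12 turned its direction under an alternative. In the control from P1 to P12, 4 genes did so with quantile normalization over 12 arrays. They were *Kcnk1* (-0.86), *Kcne1l* (-0.57), *Kcnq1ot1* (-0.52) and *Kcnc2* (-0.20). The count of genes higher at P12, 10, moved to 4 with quantile normalization over 12 arrays and 5 within each age. It was 4 with the trimmed mean, 3 with spikes, 6 with an offset of 1, 1 with each age alone and 21 with the replicate block. In that order, 7.91%, 8.34%, 7.34%, 6.55%, 10.1%, 1.76% and 36.3% of all probe sets were called higher, against 14.1% in the main fit. The 5 lower genes became 8 with the block and 8 with no signal limit, beside 7.26% and 2.6% of all probe sets. Leaving out 1 array gave 5 (without P12 control array 3) to 13 (without P12 control array 2) higher and 5 to 7 lower. Of all probe sets, 7.12% were called higher without P12 control array 3 and 23.2% without P12 control array 2. The share called lower without 1 array ran from 3.5% to 6.32%. *Kcnh1*, *Kcns2* and *Kcnmb4os2* were not called without P12 control array 3, nor *Kcnmb4os2* without P12 control array 1. The 6 differences between ages became 21 with the block and 1 with the unmoderated block, and 5 to 12 without 1 array, 12 being without P12 control array 2. Without that array, 2.29% of all probe sets were lower and 12.9% higher by the test of the difference. At P1 the fold criterion gave 1 lower gene, beside 1.08% of all probe sets. Leaving out 1 array gave 0 to 0 genes in either direction. In the control, the 33 higher genes became 16 with quantile normalization or the trimmed mean and 60 with no signal limit, with 30 to 33 higher and 0 to 0 lower without 1 array. In that order, 19.5%, 19% and 60% of all probe sets were higher, and 77.9% to 85.7% without 1 array. Genes passing the limit became 11 and 15 at P1 (control, *Otx2* CKO) and 25 in the P12 *Otx2* CKO with quantile or trimmed mean scaling. With quantile scaling 46.2%, 46.5% and 47.8% of all genes passed in these groups. With a limit of 100 they were 2 and 1 at P1 and 25 in the P12 *Otx2* CKO, and 2 in the P1 *Otx2* CKO where every array had to reach 50. Without 1 array they were 4 to 5, 3 to 5, 31 to 35 and 35 to 39 in the 4 groups. At P1, 0 of 83 genes were called with no signal limit as well, beside 0.0222% lower and 0% higher of all probe sets.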
